A study of Mus musculus with 10 samples.

Results

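U2 is the small nuclear RNA at the core of the spliceosomal particle that recognises the branch point of introns. All 191 rows listed under U2 in the deposited Snord89 table were taken, out of 13591 positions in that table, of which the other 13400 belong to the 45S pre-rRNA. Read ends were counted in 4 libraries of mouse neurons induced from embryonic stem cells by doxycycline-driven Ngn2. The 2 control libraries, A and B, came from neurons given a non-targeting antisense oligonucleotide (ASO), and the 2 knockdown libraries, A and B, from neurons given an ASO against the small nucleolar RNA Snord89. Per the labels, all 4 cultures received 1 ug/mL doxycycline and 10 uM of ASO by free uptake, RNA was taken 72 to 96 hours later, and A and B were biological replicates. The Snord89 arm used 1 ASO, and the level of Snord89 itself was not analysed here.

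RiboMeth-seq breaks RNA with mild alkali, which needs the free 2′ hydroxyl of the ribose. A 2′-O-methylated ribose shields the bond next to it, so few fragments start or stop there. The score compares the read ends at a position with a weighted mean taken over 6 positions upstream and 6 downstream: it is 1 minus that ratio, and 0 where the ratio exceeds 1. A score near 1 marks a gap in the read ends, called protection below. In mammals U2 is heavily modified, with methylated riboses and pseudouridines packed into the 5′ part that pairs with the intron and with U6. These methyl groups are placed by fibrillarin, guided to the position by box C/D RNAs that pair with the target. The nucleotides beside the cap are methylated by another enzyme.

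The Snord89 ASO is a gapmer, with modified nucleotides at each end and a central gap of DNA that lets RNase H cut the paired RNA. No sequence of U2 or of Snord89 was used here, so positions are numbered from 1 as in the table and the base at each is not given. RefSeq lists the mouse U2 gene as Rnu2-10. Reads from different copies of U2 cannot be told apart.

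U2 held 428983 and 361649 read ends in controls A and B, and 407914 and 379728 in knockdown A and B. This was 0.452%, 0.40%, 0.477% and 0.478% of all counted ends in the same order, with a median of 1786 to 2094 ends per U2 position. U2 scores correlated across positions with Pearson's r of 0.992 between the controls and 0.987 between the knockdown libraries, and with r from 0.943 to 0.954 between groups. Neighbouring positions share their windows and are not replicates. Library pairs within a group differed by more than counting noise on U2 (chi-square per degree of freedom 7.60 in the controls and 7.09 in the knockdown).

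In the control neurons, 14 of the 185 scored U2 positions were protected, taken as a score of at least 0.75 in both libraries. They were positions 1, 2, 11, 12, 19, 25, 30, 32, 39, 40, 47, 61, 176 and 178. All 10 positions known as ribose methylated in mammalian U2 (1, 2, 11, 12, 19, 25, 30, 40, 47 and 61) were among them. That list is general knowledge and not from the deposited data, and the match assumes that the table counts from the first nucleotide of U2, which was not checked against a sequence. Of the 10, positions 1 and 2 lie at the end of the RNA and were scored from the 3′ side alone. The other 4 protected positions were 32, 39, 176 and 178. None of the 114 positions from 62 to 175 reached 0.75 in both controls. After the Snord89 ASO, 12 of the 14 stayed at or above 0.75 in both libraries, and positions 11 and 12 did not. By this score no position was protected in the knockdown alone. Scored with a window of 2 positions, 91 reached 0.75 in both knockdown libraries but not in both controls. Scored against the median of the flanking counts, 176 did so too, and 39 reached 0.75 in both controls but not in both knockdown libraries.

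**Figure D1:**
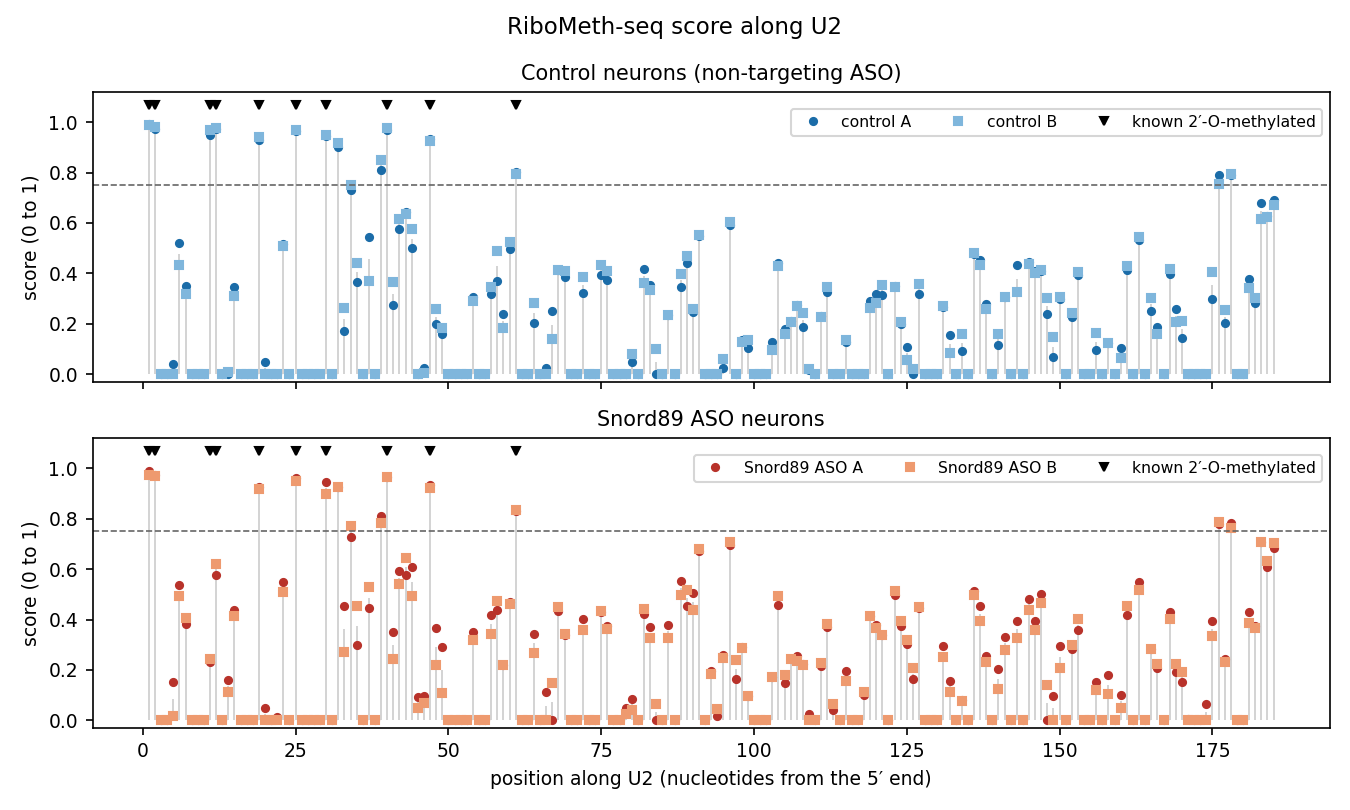
Deposited score (0 to 1, vertical) at each scored U2 position (horizontal, nucleotides from the 5′ end), with controls above and Snord89 ASO libraries below, circles for A and squares for B; grey lines reach the group mean, triangles mark the 10 known sites and the dashed line is 0.75. The tall marks at positions 11 and 12 in the controls are lower in both knockdown libraries, while those at the other known sites remain above the line.

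The Snord89 comparison asked which positions change their read ends when this guide RNA is targeted. Of 179 U2 positions with a complete window, 4 passed (edgeR's quasi-likelihood test, Benjamini-Hochberg adjusted p under 0.05), and all 4 had more ends in the knockdown: positions 11, 12, 92 and 122. Across the 13141 positions of the 45S and U2 tested together, 0.297% passed in either direction, 0.107% with more ends and 0.19% with fewer. The tested value is the log2 fold change, knockdown over control, of the ends at a position relative to its flanking mean. Positions 11 and 12 lost protection, whereas positions 92 and 122 had no protection in either group and gained ends. At an unadjusted p under 0.05 there were 33 U2 positions, against 9.58% of all tested positions. Of the 33, 5 had more ends and 28 fewer, against 5.27% and 4.31% of all tested positions, and 20 of those 28 lay within 6 nucleotides of position 92 or 122, so their flanking means contain those ends. The 33 became 12 with the 4 called positions left out of all windows (9.42% of all tested positions), 15 with the median of the flanking counts (8.76%), 15 with library size as offset (11.3%) and 4 with the U2 total as offset (17.1%). The median log2 fold change was -0.034 over the tested U2 positions and 0.011 over all tested positions.

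**Figure D2:**
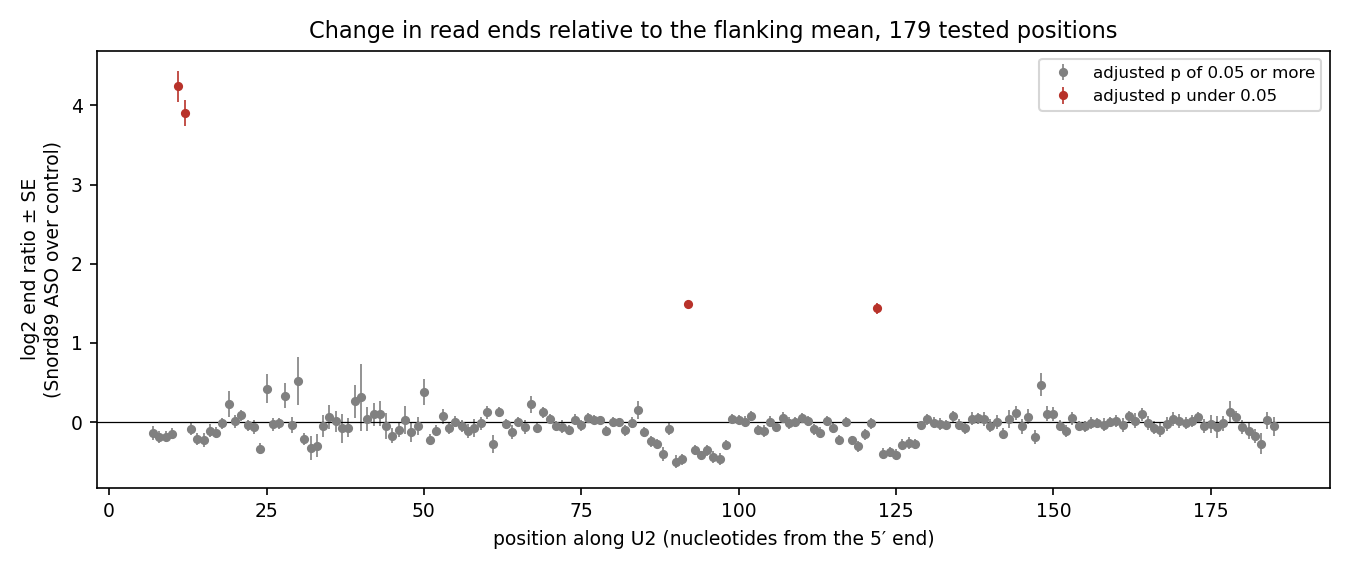
Log2 fold change (knockdown over control, vertical) with its standard error at the 179 tested U2 positions (horizontal, nucleotides from the 5′ end), red where the adjusted p is under 0.05. The 4 red points are positions 11, 12, 92 and 122, and the shallow dips lie around 92 and 122.

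Positions 11 and 12 are adjacent methylated nucleotides near the 5′ end of U2. Position 11 had 72 and 40 ends in controls A and B, against 1139 and 1077 in knockdown A and B. Its flanking mean was 1433 in control A, 1356 in control B, 1485 in knockdown A and 1426 in knockdown B, so the rise was in the ends at the position and the groups did not overlap. The score fell from 0.950 and 0.971 to 0.233 and 0.245, a change of group means from 0.960 ± 0.0147 to 0.239 ± 0.00826 (SD, n = 2 each). By edgeR this was a log2 fold change of 4.24 with an SE of 0.20 (adjusted p = 0.000242), or 18.96-fold.

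Position 12 had 43 and 34 ends in the controls, against 669 and 575 in the knockdown libraries, again without overlap. The score fell from 0.971 and 0.976 to 0.578 and 0.622, with group means of 0.973 ± 0.00320 and 0.60 ± 0.0314 (SD, n = 2 each). By edgeR this was a log2 fold change of 3.91 with an SE of 0.16 (adjusted p = 0.000242), or 14.997-fold. Both positions were protected to a like degree in the controls, but position 12 kept a higher score than position 11 in both knockdown libraries. Relative to the flanking mean, ends at position 11 reached 0.767 and 0.755 in the knockdown and those at position 12 reached 0.422 and 0.378. When each position was left out of the window of the other, these values were 0.718 and 0.703 at position 11 and 0.408 and 0.364 at position 12. The score has no scale for the share of methylated strands, because the number of ends at an unmethylated position 11 or 12 is not known from these libraries.

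**Figure D3:**
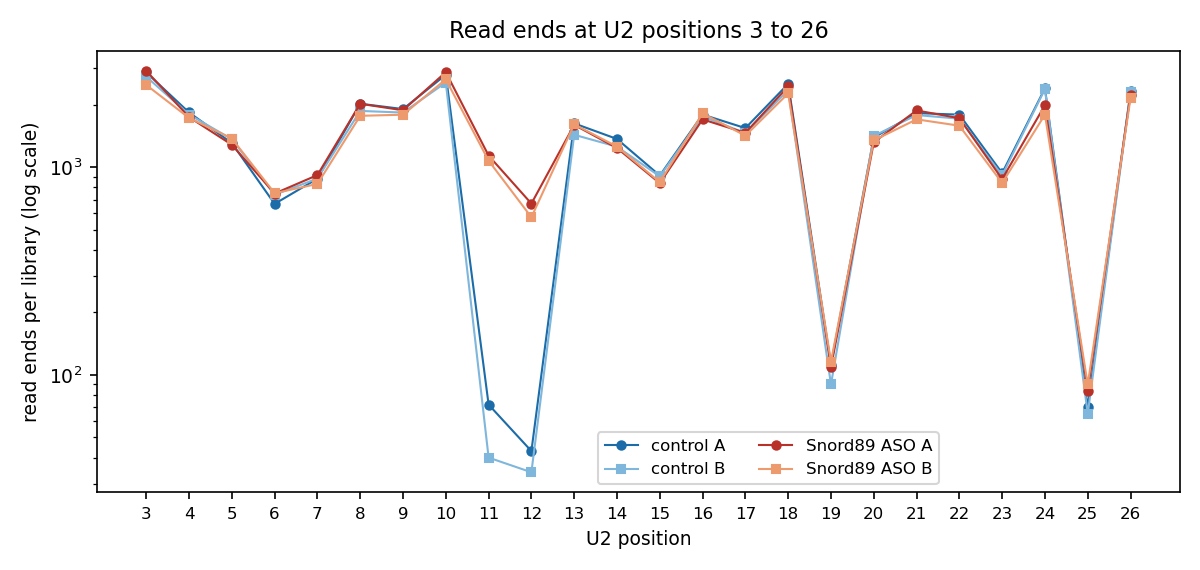
Read ends per library (vertical, log scale) at U2 positions 3 to 26 (horizontal), blue for controls and red or orange for Snord89 ASO libraries. The control gap at 11 and 12 is filled in part in both knockdown libraries, and the gaps at 19 and 25 are at like depth in all 4.

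The 10 tested neighbours within 6 nucleotides had no call (lowest edgeR adjusted p = 0.439), with log2 fold changes from -0.23 to -0.014 and a median of -0.14. Of the 10, position 13 passed in 1 alternative, a window of 2 positions, which holds 11 and 12 (log2 fold change -0.64, edgeR adjusted p = 0.0318). With positions 11 and 12 left out of their windows the median was -0.013. Position 14 was the neighbour with the largest score difference, with 0 and 0.00664 in the controls against 0.159 and 0.112 in the knockdown, while its ends were 1370 and 1258 against 1239 and 1259.

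The remaining methylated positions of the 5′ part were measured in the same libraries. Position 19 had 112 and 90 ends in the controls against 109 and 116 in the knockdown, with scores of 0.929, 0.941, 0.927 and 0.920. Position 25 had 70, 65, 84 and 90 ends in the same library order, and scores of 0.967, 0.968, 0.961 and 0.952. Both knockdown libraries lay above both controls in ends at position 25, but the log2 fold change of 0.42 (SE 0.18) did not pass (edgeR adjusted p = 0.527).

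Position 30, which in mammals carries both a base methyl group and a 2′-O-methyl group, had 105 and 92 ends in the controls against 99 and 168 in the knockdown. Knockdown B stood apart with a score of 0.897, against 0.945, 0.948 and 0.948 in the others. The log2 fold change of 0.52 (SE 0.30) did not pass (edgeR adjusted p = 0.635), and it was -0.036 with knockdown B left out.

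Position 40 lay in a thin stretch of U2, with 11 and 7 ends in the controls and 10 in each knockdown library, and flanking means of only 285 to 347 ends. Its scores were 0.968, 0.976, 0.965 and 0.965, and the log2 fold change of 0.31 had an SE of 0.42 (edgeR adjusted p = 0.871). Position 47 had 84, 76, 78 and 82 ends and scores between 0.921 and 0.933, the smallest log2 fold change of the tested protected positions at 0.031 (SE 0.18, edgeR adjusted p = 0.974).

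Position 61 was the least protected of the known sites in the controls, with scores of 0.802 and 0.793 and 437 and 412 ends. In the knockdown its scores were 0.831 and 0.835, with 365 and 333 ends, so both libraries had fewer ends than both controls. That difference did not pass (log2 fold change -0.28, SE 0.11, edgeR adjusted p = 0.504).

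Positions 1 and 2, beside the cap, had scores set by the deposited table from the 3′ side alone, and they were not tested. Position 1 had 7 and 13 ends in the controls against 14 and 32 in the knockdown, with scores of 0.995, 0.990, 0.989 and 0.974. Position 2 had 42 and 30 ends in the controls against 47 and 50 in the knockdown, with scores of 0.975, 0.982, 0.972 and 0.968. At position 3 the ends numbered between 2494 and 2917 in the 4 libraries. Ends were also few at the other end of U2, between 67 and 129 per library at positions 189 to 191. Whether the few ends at 1 and 2 come from methylation or from the end of the RNA was not tested.

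Protection was also present at 4 positions outside the list of known sites. Position 32 had 155 and 120 ends in the controls against 112 and 98 in the knockdown, with scores of 0.901, 0.917, 0.927 and 0.928. Position 39, next to the methylated position 40, had 66, 45, 53 and 62 ends and scores of 0.812, 0.851, 0.811 and 0.783. With a window of 2 positions, 32 stayed at or above 0.75 in both libraries of each group, and 39 did so in neither group. Against the median of the flanking counts, 32 again did so in each group, and 39 in the controls alone. In the 3′ part, position 176 had scores of 0.791, 0.756, 0.779 and 0.789, and position 178 had scores of 0.792, 0.796, 0.785 and 0.764. Scored against the median of its neighbours, neither 176 nor 178 reached 0.75 in both controls. Position 176, but not 178, reached it in both knockdown libraries. With a window of 2 positions, 178 was at or above 0.75 in both libraries of each group, and 176 in neither group.

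Of the 12 protected positions other than 11 and 12, the score differences between group means ran from -0.0346 at position 39 to 0.0353 at position 61. Of these, 10 were tested and 0 passed, with log2 fold changes from -0.33 at position 32 to 0.52 at position 30 and edgeR adjusted p from 0.504 to 0.974. At an unadjusted p under 0.05 there was 1 of the 10, position 61. These p-values do not show that the positions are equal between groups, and with 2 libraries per group their SEs ranged from 0.11 at position 61 to 0.42 at position 40.

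**Figure D4:**
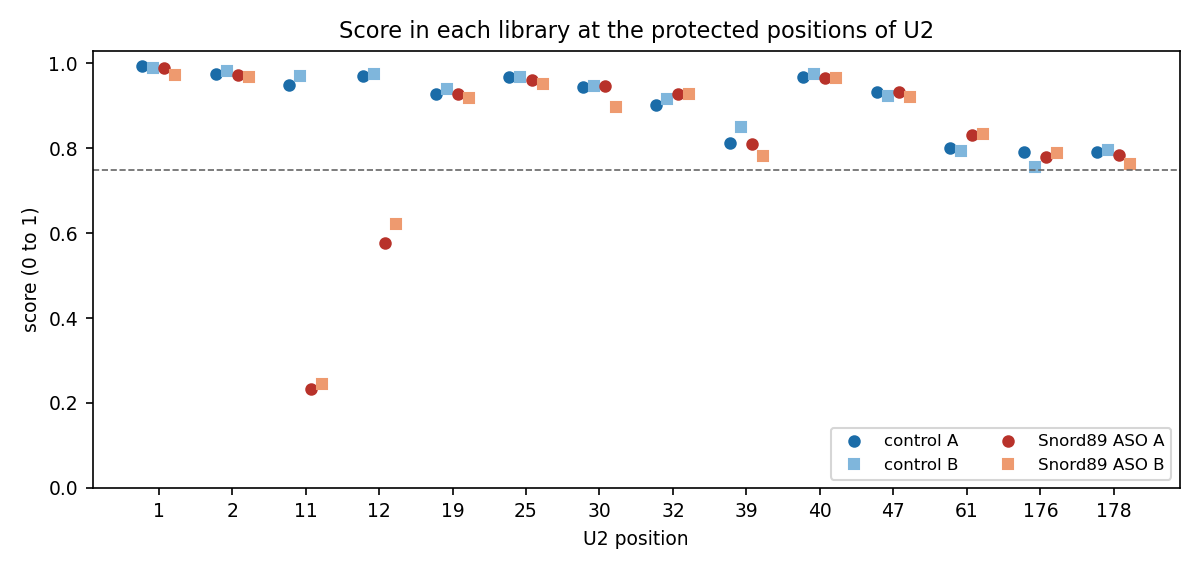
Score (0 to 1, vertical) in each of the 4 libraries at the 14 protected U2 positions (horizontal, not to scale), with the dashed line at 0.75. Positions 11 and 12 fall to between 0.233 and 0.622 in the knockdown libraries, and the other 12 stay at 0.756 or above in all 4.

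Below the protected positions, 12 had a mean control score from 0.5 to under 0.75. Position 34 had scores of 0.731 and 0.751 in the controls against 0.727 and 0.773 in the knockdown. Position 23 had scores from 0.507 to 0.550 and position 163 from 0.518 to 0.547 over the 4 libraries. Positions 183, 184 and 185, near the 3′ end, had scores between 0.607 and 0.709. Position 91 had scores of 0.550 and 0.552 in the controls against 0.673 and 0.679 in the knockdown. Position 96 had 0.591 and 0.603 against 0.698 and 0.706, and both have position 92 in their windows. The log2 fold change of -0.44 (SE 0.08) at position 96 did not pass (edgeR adjusted p = 0.109). It passed with the replicate block (edgeR adjusted p = 0.0278) and with DESeq2 (adjusted p = 0.000501). With positions 11, 12, 92 and 122 out of the windows the log2 fold change at 96 was -0.10 (edgeR adjusted p = 0.731). Ends at position 91 were 1738 and 1430 in the controls against 1508 and 1419 in the knockdown, and its log2 fold change of -0.47 (SE 0.07) did not pass (edgeR adjusted p = 0.0712). It passed in 6 of 17 alternatives: the replicate block, DESeq2, a score minimum of 0.5, a window of 2 positions, and with control replicate A or control replicate B left out. With positions 11, 12, 92 and 122 out of the windows its log2 fold change was -0.032 (edgeR adjusted p = 0.926), and with library size as offset it was 0.11 (edgeR adjusted p = 0.773). A further 65 positions had a score of 0 in all 4 libraries.

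The gain at positions 92 and 122 was of another kind, since both already had more ends than their flanking mean in the controls. Position 92 had 6640 and 5620 ends in the controls against 16726 and 16190 in the knockdown, while its flanking means were 3181 and 2609 in the controls against 2824 and 2679 in the knockdown. Ends relative to the flanking mean went from 2.09 and 2.15 to 5.92 and 6.04. By edgeR this was a log2 fold change of 1.496 with an SE of 0.050 (adjusted p = 0.000116), or 2.82-fold.

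Position 122 had 4347 and 3873 ends in the controls against 10950 and 11228 in the knockdown, and went from 1.38 and 1.503 to 3.77 and 4.03 relative to the flanking mean. By edgeR this was a log2 fold change of 1.44 with an SE of 0.07 (adjusted p = 0.000242), or 2.71-fold. Together positions 92 and 122 took 2.56% and 2.62% of all U2 ends in the controls against 6.78% and 7.22% in the knockdown, and the groups did not overlap. Scores were 0 at both positions in all 4 libraries, so the score does not show this change. In the controls, position 78 had the most ends of U2, with 8115 and 7130, against 7312 and 6718 in the knockdown, and position 87 came next, with 7006 and 6051 against 6491 and 5925. Neither passed (by edgeR, a log2 fold change of 0.0285 with adjusted p = 0.908 at 78, and of -0.27 with adjusted p = 0.173 at 87). Position 87 passed with DESeq2 (adjusted p = 0.00593) and without control replicate A (edgeR adjusted p = 0.0450).

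**Figure D5:**
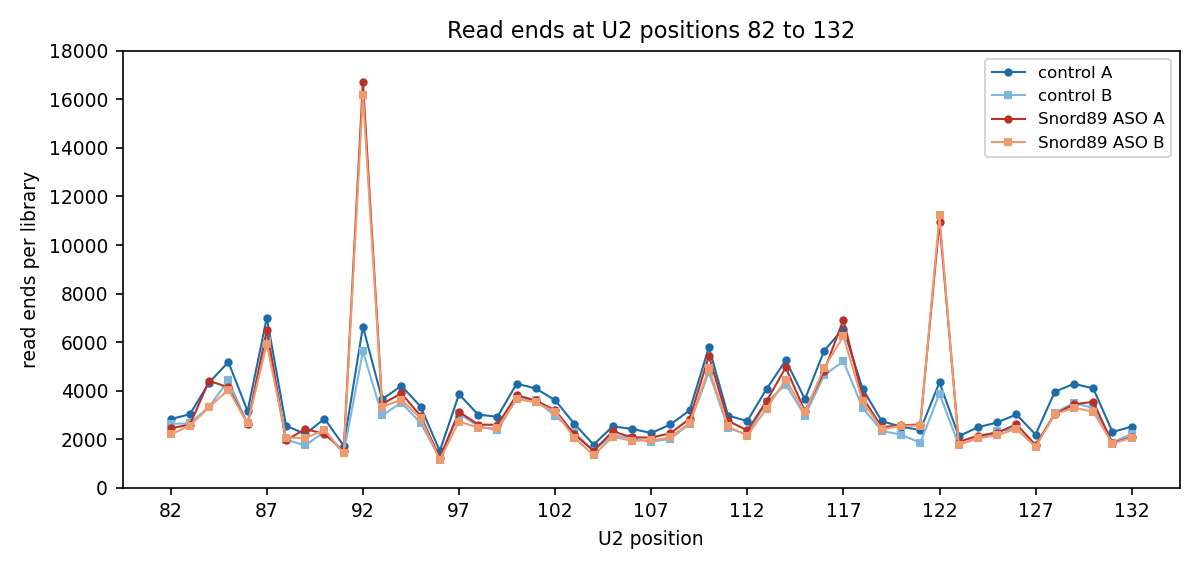
Read ends per library (vertical) at U2 positions 82 to 132 (horizontal), blue for controls and red or orange for Snord89 ASO libraries. Both knockdown libraries stand above both controls at 92 and at 122, while the positions between them follow like profiles in all 4.

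Scores around these peaks also differed between groups. Of the tested U2 positions, 18 had a mean score higher by at least 0.1 in the knockdown without overlap between groups, against 4.03% of all tested positions, and 16 of the 18 lay within 6 nucleotides of position 92 or 122. The 24 neighbours had a median log2 fold change of -0.30, and 20 of them had an unadjusted p under 0.05. With positions 11, 12, 92 and 122 left out of all windows, a setting chosen after seeing the data, the median was -0.025 and 3 had an unadjusted p under 0.05. The lowest edgeR adjusted p of an uncalled U2 position was 0.0649, at 94. Positions 88, 90, 91, 93 to 97 and 123 to 125 passed with both the replicate block and DESeq2 (1.69% and 1.94% of all tested positions passed). None of these passed with the 4 called positions left out of all windows. Only positions 11, 12 and 148 had a score lower by at least 0.1 without overlap, against 5.76% of all tested positions. Among these, position 148 had 1144 and 810 ends in the controls against 1555 and 1038 in the knockdown, with scores of 0.238 and 0.302 against 0 and 0.140. It did not pass (log2 fold change 0.48, SE 0.15, edgeR adjusted p = 0.358), except with the replicate letter as a block (edgeR adjusted p = 0.0429).

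Knockdown A and B each had a larger U2 share of all counted ends than either control, and without positions 11, 12, 92 and 122 it was 0.441% and 0.389% in controls A and B and 0.443% and 0.442% in knockdown A and B. An exact permutation test of 2 against 2 cannot go below a p of 0.33, and the U2 share was not tested. The middle of U2, positions 65 to 128, held 54.1% and 54.4% of U2 ends in the controls against 55.6% and 56.1% in the knockdown. It contains positions 92 and 122, which took 2.56% and 2.62% of U2 ends in the controls against 6.78% and 7.22% in the knockdown. That rise is larger than the rise of the middle, so the rest of the middle held a smaller share in the knockdown.

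The number of calls differed with the tool and with single libraries left out. By limma on the log2 ratio 0 of the 13141 positions passed, the 4 included (adjusted p from 0.179 to 0.259). At an unadjusted p under 0.05 limma gave 32 U2 positions, against 8.37% of all tested positions. Their log2 fold changes by limma were 4.28, 3.88, 1.496 and 1.44 at positions 11, 12, 92 and 122. Leaving out a library leaves 1 in its group, which is then assumed to vary like the other group. Without knockdown replicate B, position 11 had an edgeR adjusted p of 0.0514, with a log2 fold change of 4.26. With control replicate A left out, 17 U2 positions passed in place of 4, while 4.52% of all tested positions did. With control replicate B left out 9 passed, while 0.9% of all tested positions did.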

How the data were processed

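Total RNA was hydrolysed in alkaline bicarbonate and made into small RNA libraries, per the labels' protocols. The submitters' processing notes name Trim Galore, cutadapt, Bowtie2 and bedtools. Genome build and read filters are not given in the sources used here. The authors deposited counts of 5′ and 3′ read ends added together, and a score that is a fraction from 0 to 1. Recomputed scores were within 1e-06 of the deposited ones. At the first 6 positions of U2 the deposited score uses the 3′ side alone.

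End counts were tested with edgeR 4.0.16 in R 4.3.3. The offset was the logged flanking mean (weights 1.0 to 0.5, windows inside each RNA). The fit ran on complete windows with a mean flanking count of at least 10 in the 45S and U2 together, with no score minimum. It was also run on simulated counts, whose outcome is not given here. These were drawn for each position separately with the flanking means held fixed, so they do not cover shared windows. SEs are the size of the log2 fold change divided by the root of F. Alternatives used limma 3.58.1 (pseudocount 1), DESeq2 1.42.0, other windows, minimums and offsets. Named positions are the known sites, positions at 0.75 in both libraries of a group, those passing, and the 3 with most control ends. Other positions were chosen after their values were seen. Members and lists were chosen with earlier results of these data known. The ASO sequence is not reported here.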

Additional observations from a re-analysis of the deposited data

How the results depend on the processing

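The count of 4 changed U2 positions (0.297% of all tested positions passed) became 16 with the replicate block (1.69% of all), 22 with DESeq2 (1.94%), 0 with limma on the log2 ratio (0 of all, and 32 U2 positions at an unadjusted p under 0.05) and 12 with a window of 2 positions (0.29%), and ranged from 3 to 17 with each library left out (0.0304% to 4.52%), where the lone library of a group is assumed to vary like the other group. Calls with more ends, 4 at first (0.107% of all), became 2 of the 23 U2 positions tested with a score minimum of 0.5 (0.273% of 1465 in all), which leaves out positions 92 and 122, 5 with the replicate block (0.852%) and 0 with limma, and ranged from 3 to 4 with each library left out (0.0228% to 2.25%). Calls with fewer ends, 0 at first (0.19% of all, and 28 U2 positions at an unadjusted p under 0.05), became 11 with the replicate block (0.837%), 18 with DESeq2 (0.845%), 1 with a score minimum of 0.5 (0.273%) and 8 with a window of 2 positions (0.168%), and ranged from 0 to 13 with each library left out (0.0076% to 2.27%). The cause was not tested. Libraries with the same letter share a letter only, and their deviations from the group means were not related (correlation 0.00621 over all positions and -0.0089 over U2). Protected positions, 14 in the controls, numbered 24 at a score of 0.5 and 10 at 0.9, and the 12 in the knockdown numbered 23 at 0.5 and 7 at 0.9. With a window of 2 positions they numbered 11 in the controls and 10 in the knockdown. With the median of the flanking counts they numbered 10 and 8. Neither setting scores positions 1 and 2. With each library left out they ranged from 14 to 15 and from 12 to 13. Among the uncalled positions named by the rule, the log2 fold change changed sign at 30 with a library left out (-0.036 without knockdown replicate B to 0.94 without knockdown replicate A), at 47 (-0.084 without knockdown replicate B to 0.14 without knockdown replicate A, and -0.048 without control replicate A) and at 176 (-0.17 without control replicate A to 0.050 without control replicate B). It also did so at 78 (-0.12 with the U2 total as offset) and at 176 (0.10 with library size as offset). At 87 it became 0.047 with a window of 2 positions, 0.060 with the median, 0.033 without the called positions in the windows and 0.15 with library size. Depth limits positions 1 and 40, with 7 to 32 ends.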

Other observations

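At the 3′ end of U2, positions 187 and 188 held 4594 and 2974 ends in control A, 3320 and 2017 in control B, 4210 and 2987 in knockdown A and 3876 and 2612 in knockdown B. There were between 67 and 129 ends per library at positions 189 to 191. Positions 186 to 191 have no complete window of 6 and were not in the main comparison. With a window of 2 positions, which takes in 186 to 189 of these, position 189 had a score of at least 0.9 in both libraries of each group. The window of 189 holds the many ends at 187 and 188, and ends were as few at 190 and 191. The score at 189 is therefore not read as protection here.

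Libraries of a group differed most at a few positions. The absolute log2 difference in ends over flanking mean between A and B had a median of 0.05 in the controls and 0.07 in the knockdown. It was above 0.4 at 3 of 179 positions in the controls and at 5 in the knockdown. In the controls these were positions 11, 37 and 40, with the largest difference at 11 (0.77, from 72 and 40 ends). In the knockdown they were 28, 30, 33, 50 and 148, with the largest at 30 (-0.98). Knockdown A had the most ends of the 4 libraries at position 28, with 6342 against 4867, 4294 and 4199, and at position 50, with 4102 against 3246, 2474 and 2754. Neither position was called (edgeR adjusted p = 0.554 and 0.529).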
